A study of Homo sapiens with 10 samples.

Results

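The transcripts described here are those of 8 genes at the core of caspase activation: the caspases CASP2, CASP6, CASP8 and CASP9, the scaffold APAF1, the inhibitor XIAP, and the mitochondrial proteins DIABLO and CYCS. A gene was taken from rows of the deposited value table whose platform annotation gives exactly 1 gene symbol, and the row with the highest mean over the 10 arrays was to stand for it. Each of the 8 genes had 1 such row, so that 8 of 14232 genes with a row of 1 symbol are described. The series measured total RNA of SH-SY5Y, an established human neuroblastoma line with features of sympathetic neuroblasts, on Affymetrix exon arrays. The groups were 5 arrays of untreated cells (controls 7, 11, 13, 17 and 19, the numbers being those of the titles) and 5 of cells exposed to paraquat (paraquat 8, 12, 14, 18 and 20), a herbicide that redox-cycles in cells and generates superoxide. All arrays come from the same cell line. Neither the dose nor the length of exposure is stated in the labels used here. Whether the arrays of a group represent separate cultures is not stated either, and p-values therefore reflect array-to-array spread that may be technical only. Values are log2 expression after RMA.

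Caspases are proteases made as inactive precursors. Initiator caspases are activated when adaptor platforms bring their precursors together, and executioner caspases are activated by cleavage and then cut many cellular proteins. In the mitochondrial route, cytochrome c released from mitochondria binds APAF1, which assembles into the apoptosome and activates caspase-9, while XIAP blocks active caspases and is itself displaced by DIABLO, released from the same compartment. Because activity is set by release, assembly and cleavage of proteins, transcript levels of these genes are a readout of their supply and not of caspase activity. In neuroblastoma CASP8 is frequently silenced.

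Array medians lay between 6.78 and 6.93. Control 11 had the widest residuals around its group mean (SD 0.358 on the log2 scale, against 0.215 to 0.274 in the other controls). The changes of CASP6, CASP8, CASP2, CYCS, XIAP and DIABLO are also given without it. Those of the surrounding genes are given only with it. The sample type was checked against marker lists. Of 10 markers of sympathetic neuroblasts 7 had a row of 1 symbol, and 6 of them were lowered. Their list means lay between 9.53 and 9.74 in controls and between 8.64 and 8.90 after paraquat. Over all rows 11.5% were called lowered and 8.51% raised (limma adjusted p under 0.05), the background for each marker list here. The 5 measured leukocyte markers had list means between 3.40 and 3.75 in all arrays, with PTPRC, CD3E and LYZ in the dimmest 20.0% of rows (means up to 4.18), while 1 of them, the monocyte marker CD14, rose from 5.21 to 5.86 (adjusted p = 0.00552). The fibroblast list, of which 7 of 7 were measured and 2 were lowered, had list means of 8.14 to 8.40 in controls, the highest being control 11, and of 7.48 to 7.61 after paraquat. The 5 measured epithelial markers, with list means of 5.79 to 6.26, and the 3 measured Schwann or glial markers, with 4.56 to 5.26, had 0 calls in limma (1, KRT18, at an unadjusted p under 0.05), and KRT8 was bright in every array (10.20 to 10.92). The part of such shifts in the results on caspases was not tested.

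Most of the 8 core transcripts were not called different between untreated and paraquat-treated cells. CASP6, an executioner caspase, was the only one of the 8 that passed the test: it fell 1.66-fold. In bulk RNA, fewer cells with a transcript and less of it per cell cannot be told apart. The other 7 had changes between -0.32 and 0.36 on the log2 scale that did not pass, among them the scaffold APAF1 (-0.28) and the inhibitor XIAP (-0.32). In limma 0 of 8 were raised and 1 was lowered at an adjusted p under 0.05, and at an unadjusted p under 0.05 there were 2 higher (CASP8 and CASP9) and 1 lower, where 30.7% of all rows have such a p. Of all 22011 rows, 20.0% were called, 8.51% as raised and 11.5% as lowered, and of the 14232 genes at 1 row each 23.8% were called. The 12.5% called here rests on 1 gene of 8 and is not read as a difference from either share. The median change of the 8 was -0.18, beside 0.00 over the 14232 genes. Control and paraquat arrays were fully separated for 1 of 8 genes, CASP9, as they were for 16.2% of all rows. Of the 14232 genes, 1187 were separated with paraquat above and 1645 with paraquat below.

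**Figure D1:**
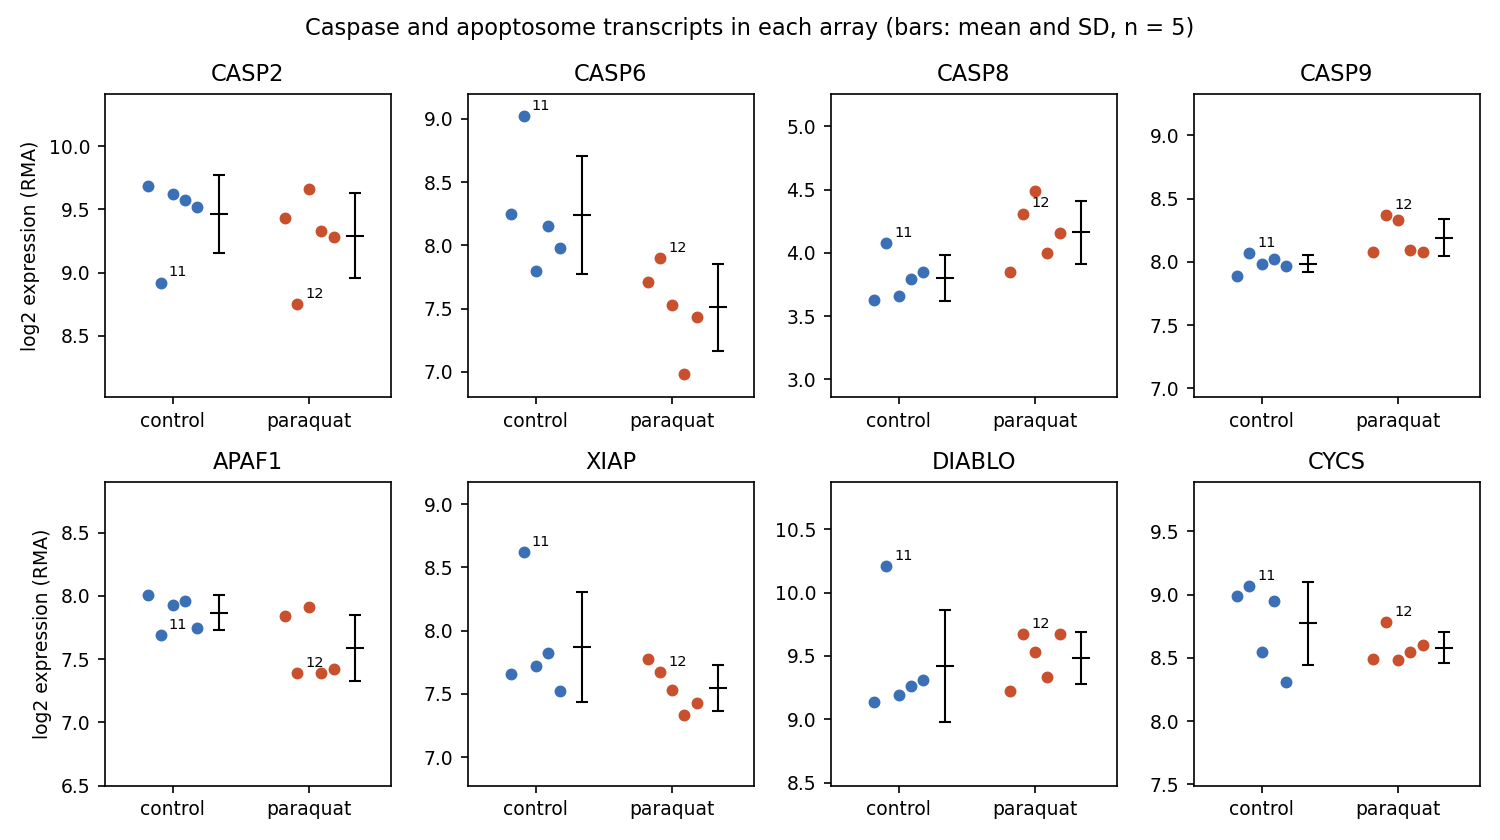
Log2 expression (RMA) of the 8 transcripts in each array, controls in blue and paraquat in orange, with the group mean and SD at the side (n = 5 arrays each) and control 11 and paraquat 12 marked by number; every panel spans the same number of log2 units. The groups overlap in every panel except CASP9, and control 11 stands apart for CASP2, XIAP and DIABLO.

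CASP6 (transcript cluster 2781693), which cleaves nuclear lamins among other proteins, measured 8.25 in control 7, 9.02 in control 11, 7.80 in control 13, 8.15 in control 17 and 7.98 in control 19. After paraquat it measured 7.71 in array 8, 7.90 in array 12, 7.53 in array 14, 6.98 in array 18 and 7.43 in array 20. All 5 paraquat arrays lay below the control median of 8.15, and 4 of the 5 lay below every control; paraquat 12 reached into the control range. The mean went from 8.24 ± 0.47 to 7.51 ± 0.35 (SD, n = 5 each), a log2 change of -0.73 ± 0.23 (SE) with a 95% interval from -1.24 to -0.22 (limma adjusted p = 0.0458). The decrease stayed between -0.84 and -0.54 with any 1 array left out, but the call held in only 2 of those 10 fits, those without control 13 (adjusted p = 0.035) and without paraquat 12 (adjusted p = 0.0369), and the adjusted p ranged up to 0.103. Without control 11, the highest array, the change was -0.54 (adjusted p = 0.055), and without both control 11 and paraquat 12 it was -0.63 and passed (adjusted p = 0.0252).

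The sequence before the CASP6 start is shown because CASP6 is the member whose transcript was called lowered. RefSeq (GRCh38.p14) gives 1 start for this gene, and the 250 bases before it lie on the minus strand at chr4:109703446-109703695, printed 5′ to 3′ on that strand with each match to GGGCGG, the GC box letters, in capitals.

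CASP6: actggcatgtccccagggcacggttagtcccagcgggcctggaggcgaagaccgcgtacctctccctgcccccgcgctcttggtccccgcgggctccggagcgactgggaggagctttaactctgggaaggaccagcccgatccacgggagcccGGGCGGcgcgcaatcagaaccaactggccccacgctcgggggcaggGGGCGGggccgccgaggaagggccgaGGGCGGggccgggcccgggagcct

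The window is 74.0% G and C and holds 26 CG dinucleotides and 3 matches to GGGCGG, searched on both strands. Of 35116 windows of the same length in the RefSeq table, 42.6% hold at least 1 such match.

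None of the initiator caspases passed the test, with changes of 0.36 for CASP8, 0.21 for CASP9 and -0.17 for CASP2. CASP9 (transcript cluster 2397695), which the apoptosome activates, measured 7.89, 8.07, 7.98, 8.02 and 7.97 in controls 7, 11, 13, 17 and 19. After paraquat it measured 8.08, 8.37, 8.33, 8.09 and 8.08 in arrays 8, 12, 14, 18 and 20. The 5 paraquat arrays were all above the 5 controls, though arrays 8, 18 and 20 exceeded the highest control by little. The mean was 7.99 ± 0.06 in controls and 8.19 ± 0.15 after paraquat, a log2 change of 0.21 ± 0.09 with a 95% interval from 0.01 to 0.40 that did not pass (adjusted p = 0.138). Non-overlapping groups with paraquat above were found in 7.01% of rows.

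The CASP9 window is shown because this was the member with fully separated control and paraquat arrays. RefSeq gives a pair of starts on the minus strand of chromosome 1, and the 250 bases before the one farther along the gene, chr1:15524216-15524465, read as follows with GGGCGG in capitals.

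CASP9: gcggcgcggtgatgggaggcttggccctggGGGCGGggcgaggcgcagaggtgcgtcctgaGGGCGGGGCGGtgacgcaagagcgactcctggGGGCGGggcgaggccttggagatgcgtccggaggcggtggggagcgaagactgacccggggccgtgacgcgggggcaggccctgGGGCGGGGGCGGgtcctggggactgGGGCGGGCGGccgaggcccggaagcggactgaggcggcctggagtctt

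Both CASP9 windows hold 8 matches to GGGCGG, counting matches that overlap each other, against 3 or 4 in the CASP6 window and the first CASP2 window and 0 to 2 in those of the other members. Such a count of 8 or more was found in 0.584% of all windows. The cutoff of 8 equals the count in the CASP9 windows, so this share is a description and not a test. Over the 17 windows of the 8 genes, 12 hold the GC box letters, where 42.6% of all windows hold them. Windows of a gene can overlap, as those of XIAP do, so they are not separate observations. The E2F octamers TTTGGCGC, TTTCGCGC and TTTCCCGC, none of which contains GGGCGG on either strand, were in 0 of the 17, where 2.32% of all windows hold at least 1 of them. A single decamer of the p53 response element, which is not the full element, was in 2 of the 17, 1 of CASP8 and 1 of CASP9, where 5.57% of all windows hold it. A match describes letters only, and the absence of one says nothing about binding outside the window.

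CASP8 (transcript cluster 2522728), the initiator of the death receptor route, measured 3.63, 4.08, 3.66, 3.79 and 3.85 in controls 7, 11, 13, 17 and 19. It measured 3.85, 4.31, 4.49, 4.0 and 4.16 in paraquat 8, 12, 14, 18 and 20. All paraquat arrays were above the control median of 3.79 and 3 of the 5 were above every control, control 11 being the highest of the controls. The change of 0.36 ± 0.13 (95% interval 0.07 to 0.65) did not pass (adjusted p = 0.0848). The CASP8 row had means of 3.80 ± 0.18 and 4.16 ± 0.25, within the dimmest 20.0% of rows, where a transcript cannot be told from background and RMA shrinks differences. The change passed without control 11 (0.43, adjusted p = 0.0403) and without paraquat 8 (0.44, adjusted p = 0.0405), and did not pass with any other 1 array left out, at adjusted p up to 0.175.

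CASP2 (transcript cluster 3029030), the initiator recruited to the PIDDosome, measured 9.68, 8.92, 9.62, 9.57 and 9.52 in controls 7, 11, 13, 17 and 19. It measured 9.43, 8.75, 9.66, 9.33 and 9.28 in paraquat 8, 12, 14, 18 and 20. Control 11 and paraquat 12 were the lowest of their groups, at -0.68 and -0.63 from the median of the other arrays. The means of 9.46 ± 0.31 and 9.29 ± 0.33 differed by -0.17 ± 0.18 (95% interval -0.58 to 0.24, adjusted p = 0.608). Without control 11 the change was -0.31 (adjusted p = 0.22), and without paraquat 12 it was -0.04 (adjusted p = 0.92).

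APAF1 and CYCS, whose products assemble the apoptosome that activates caspase-9, were both slightly below control on average and neither passed. The change of CASP9 was positive (0.21) and did not pass either. APAF1 (transcript cluster 3427876), the scaffold, measured 8.01, 7.69, 7.93, 7.96 and 7.75 in controls 7, 11, 13, 17 and 19. It measured 7.84, 7.39, 7.91, 7.39 and 7.42 in paraquat 8, 12, 14, 18 and 20. The paraquat arrays split into 3 below every control and 2, arrays 8 and 14, within the control range. The change was -0.28 ± 0.13 (95% interval -0.56 to 0.01, adjusted p = 0.176). APAF1 is a textbook transcriptional target of p53 and of E2F1, and the part of either in these values was not tested. With array weights, which count arrays with wide residuals less, the change was -0.38 and passed (adjusted p = 0.0236).

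CYCS (transcript cluster 3042001), cytochrome c, which carries electrons in the respiratory chain and binds APAF1 once released, measured 8.99, 9.07, 8.55, 8.95 and 8.31 in controls 7, 11, 13, 17 and 19. It measured 8.49, 8.78, 8.48, 8.55 and 8.60 in paraquat 8, 12, 14, 18 and 20. Every paraquat array was below the control median of 8.95, but all 5 lay within the range of the controls, which spread more (SD 0.33 against 0.12). The change of -0.20 ± 0.15 had a 95% interval from -0.52 to 0.13 (adjusted p = 0.427). It was -0.12 without control 11 (adjusted p = 0.642) and -0.31 without control 19 (adjusted p = 0.113), the highest and lowest controls.

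**Figure D2:**
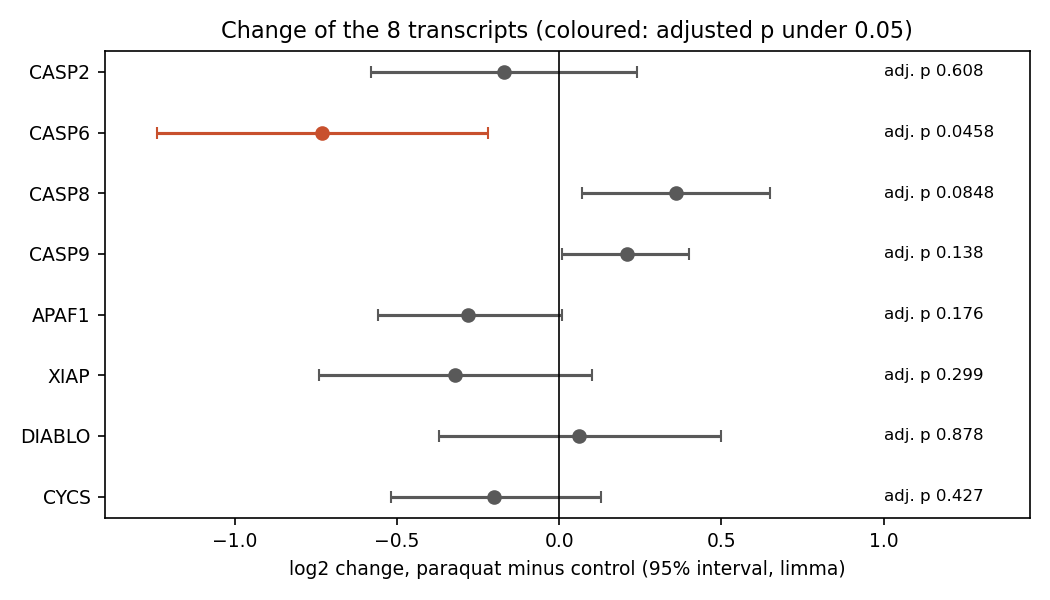
Log2 change (paraquat minus control) of the 8 transcripts with 95% intervals from limma, and adjusted p at the right. Only the CASP6 point, at -0.73, is coloured as called; the intervals of CASP8 and CASP9 also lie on 1 side of 0 but their adjusted p are 0.0848 and 0.138.

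The inhibitor XIAP and its antagonist DIABLO shared their highest control. XIAP (transcript cluster 3989678), which binds and blocks active caspases, measured 7.66, 8.62, 7.72, 7.82 and 7.52 in controls 7, 11, 13, 17 and 19. It measured 7.78, 7.67, 7.53, 7.33 and 7.43 in paraquat 8, 12, 14, 18 and 20. Control 11 was 0.93 above the median of the other controls, and the remaining controls overlapped with 3 of the 5 paraquat arrays. The change was -0.32 ± 0.19 (95% interval -0.74 to 0.10, adjusted p = 0.299), and -0.13 without control 11 (adjusted p = 0.479).

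DIABLO (transcript cluster 3475511), the mitochondrial protein also called SMAC that displaces inhibitors such as XIAP from caspases, measured 9.14, 10.21, 9.19, 9.26 and 9.31 in controls 7, 11, 13, 17 and 19. It measured 9.22, 9.67, 9.53, 9.33 and 9.67 in paraquat 8, 12, 14, 18 and 20. Control 11 was above every other array of the series for this row, 0.98 over the median of the other controls. The change was 0.06 ± 0.20 (95% interval -0.37 to 0.50, adjusted p = 0.878). Without control 11 it was 0.26 and did not pass (adjusted p = 0.136), with 4 of 5 paraquat arrays above the median of all 5 controls.

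Differences between a pair of members within an array remove a shift common to both rows. They were chosen after the values were seen and are given as descriptions. Probes differ in brightness, so the level of such a difference has no meaning and only its shift between groups does. DIABLO minus XIAP was 1.44 to 1.78 in controls, with control 11 at 1.59 inside that range although both of its rows were high. After paraquat it was 1.44 in array 8 and 2.0 to 2.24 in the other 4 arrays, so that the groups overlapped through array 8 and the means differed by 0.38. CASP9 minus APAF1 lay between -0.11 and 0.37 in controls and between 0.24 and 0.98 after paraquat, with means of 0.12 ± 0.19 and 0.60 ± 0.28. CASP9 minus XIAP had means of 0.12 ± 0.39 and 0.64 ± 0.20, its lowest value being control 11 at -0.55. APAF1 minus XIAP had means of 0.00 ± 0.52 and 0.04 ± 0.24, and control 11 was the lowest at -0.93. Without control 11, an alternative added after the data were seen, the difference between the group means turned from 0.04 to -0.19 for APAF1 minus XIAP. It was then 0.36 in place of 0.53 for CASP9 minus XIAP, 0.55 for CASP9 minus APAF1 and 0.39 for DIABLO minus XIAP.

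The genes nearest in pattern were those with the smallest mean absolute difference from a member over the 10 arrays, in log2 units after each gene was set to its own mean. For CASP6 these were IFT81 (0.0755) and NAP1L5 (0.0907), which also fell, with changes of -0.72 (adjusted p = 0.0357) and -0.85 (adjusted p = 0.0167). The median gene lay 0.42 from CASP6. For CASP9 they were SYTL2 (0.0407) and FAAH (0.0467), for CASP8 SYPL1 (0.0621) and UFSP1 (0.0784), and for CASP2 CACHD1 (0.0462) and ARHGAP26 (0.0618). APAF1 was nearest to QSER1 (0.0455) and KAT2B (0.0492), and CYCS to PDAP1 (0.0944) and C1orf220 (0.0957). XIAP was nearest to IFT88 (0.0546) and MBIP (0.0549), and DIABLO to HAUS2 (0.0791) and SELENOH (0.0837). These distances describe these arrays only.

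Genes around the core were called in both directions. Of 46 genes in 6 lists on caspase activation, 34 had a row of 1 symbol, of which 7 rose and 8 fell, or 44.1% beside 20.0% of all rows and 23.8% of the 14232 genes with a row of 1 symbol. The lists were chosen with earlier results of these data known, so this share is a description and was not tested against the background. The direction was mixed and the median change was 0.02. Genes of the lists without such a row, among them CASP1, CASP4, RIPK1, NAIP and BIRC3, were not analysed here. Without control 11 and paraquat 12 the counts were 8 raised and 7 lowered, with 13 of the 15 calls shared.

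**Figure D3:**
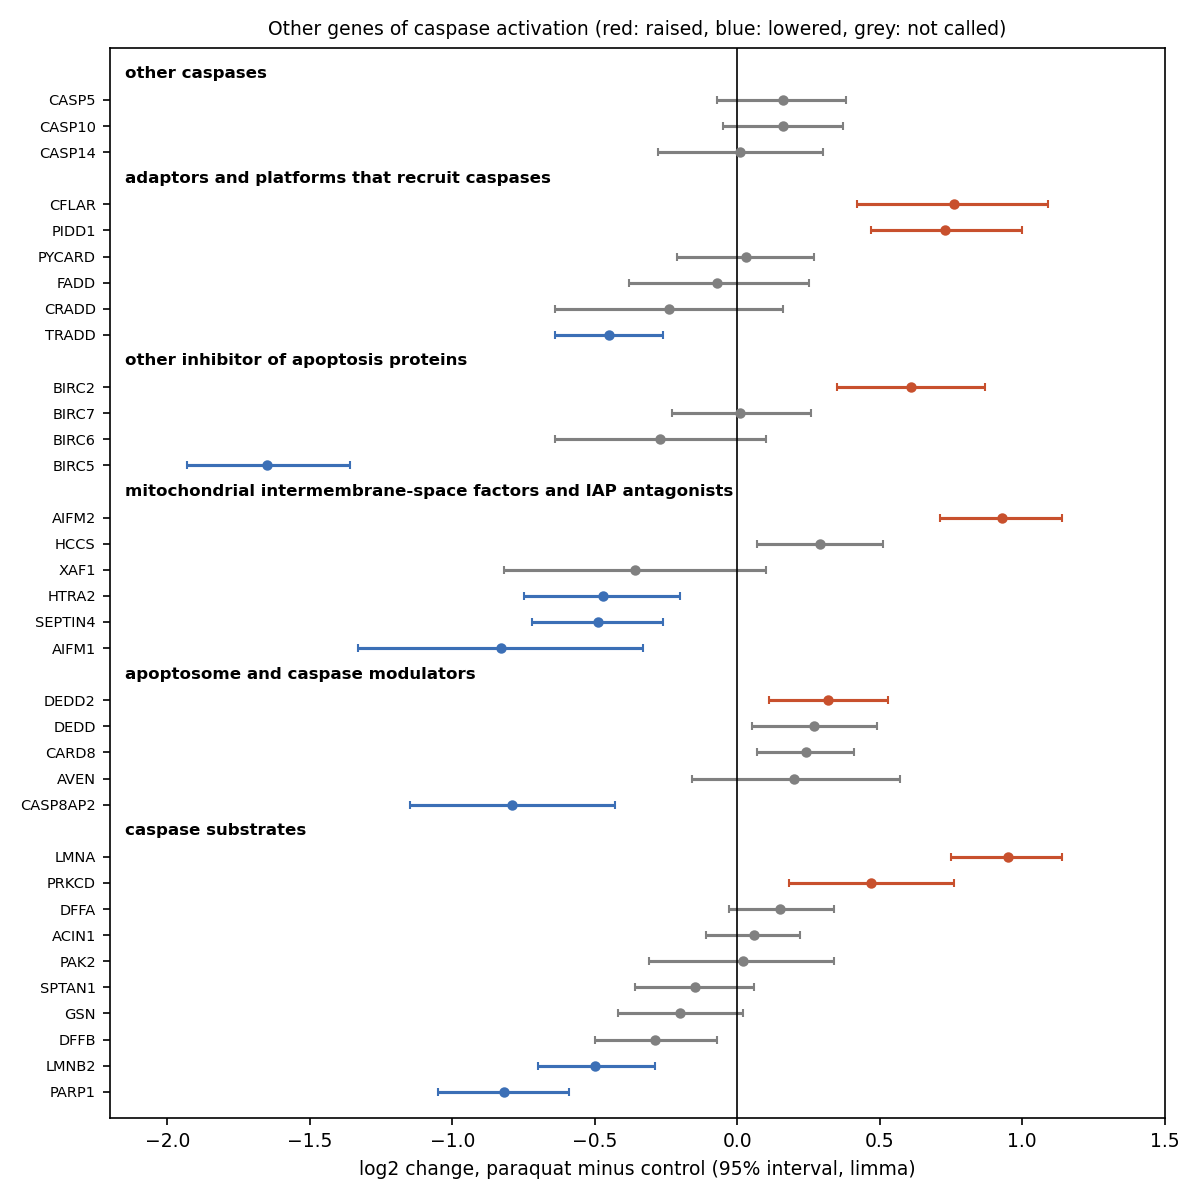
Log2 change (paraquat minus control) with 95% intervals from limma for the 34 measured genes of the 6 lists, in red where raised, blue where lowered and grey where not called. Calls in both directions occur in every list except the other caspases, with BIRC5 (-1.65) the largest decrease and LMNA (0.95) the largest increase.

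Of the other caspases, 0 of 3 measured were called in limma, and 0 had an unadjusted p under 0.05. CASP10, a relative of caspase-8, had a change of 0.16 (adjusted p = 0.295) and the inflammatory caspase gene CASP5 one of 0.16 (adjusted p = 0.345), from control means of 2.82 and 2.96 that are among the dimmest rows.

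Of 6 measured genes listed as adaptors and platforms that recruit caspases, the inhibitor gene CFLAR among them, 2 rose and 1 fell (median -0.02). CFLAR, which encodes the caspase-8 inhibitor FLIP, measured 6.15 to 6.91 in controls and 6.99 to 7.48 after paraquat, a change of 0.76 ± 0.15 (adjusted p = 0.00475). PIDD1, the p53-inducible scaffold of the caspase-2 platform, measured 7.48 to 7.86 in controls and 8.21 to 8.67 after paraquat, a change of 0.73 ± 0.12 (adjusted p = 0.00146). Thus the groups did not overlap for either, while CASP2 and CASP8 themselves did not pass. TRADD, an adaptor of tumour necrosis factor receptors, measured 7.97 to 8.27 in controls and 7.58 to 7.80 after paraquat and fell (-0.45, adjusted p = 0.00344).

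Beside XIAP, 1 of 4 measured inhibitor of apoptosis genes rose and 1 fell (median -0.13). BIRC2, which encodes cIAP1, a ubiquitin ligase, rose from 8.85 ± 0.23 to 9.46 ± 0.14, by 0.61 ± 0.12 (adjusted p = 0.00405). BIRC5, survivin, which also serves in the chromosomal passenger complex of mitosis, fell from 9.81 ± 0.18 to 8.16 ± 0.23, a log2 change of -1.65 (adjusted p = 8.92e-06). A second row assigned to BIRC5 fell as well (-1.16, adjusted p = 0.00286).

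Mitochondrial factors and antagonists of inhibitors, the list nearest to DIABLO and CYCS, had 1 of 6 raised and 3 lowered (median -0.42). AIFM1, a flavoprotein of the intermembrane space, fell (-0.83, adjusted p = 0.0241), as did SEPTIN4, whose ARTS isoform binds XIAP (-0.49, adjusted p = 0.00704), and the protease gene HTRA2, whose product like DIABLO can bind XIAP (-0.47, adjusted p = 0.0195). HTRA2 measured 8.65 to 9.19 in controls, highest in control 11, and 8.12 to 8.56 after paraquat. AIFM2, a p53-induced oxidoreductase also known as FSP1, rose by 0.93 (adjusted p = 6.40e-05).

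Of 5 measured modulators of caspase activation, DEDD2, a death effector domain protein, rose by 0.32 (adjusted p = 0.0348) and CASP8AP2, a nuclear protein that binds caspase-8 and takes part in histone gene expression, fell (-0.79, adjusted p = 0.00537). Of 10 measured caspase substrates 2 rose and 2 fell (median -0.07). LMNA, the lamin A gene and a substrate of caspase-6, measured 9.20 to 9.51 in controls and 10.16 to 10.43 after paraquat, a change of 0.95 ± 0.09 (adjusted p = 3.03e-05). The kinase gene PRKCD rose by 0.47 (adjusted p = 0.0264). PARP1, the DNA damage sensor, measured 10.60 to 10.77 in controls and 9.60 to 10.17 after paraquat and fell (-0.82, adjusted p = 0.000248). LMNB2, a B-type lamin gene, fell too (-0.50, adjusted p = 0.00347).

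How firmly each member lies on its side of the threshold differed. Over 20 alternative fits CASP6 had adjusted p between 0.0123 and 0.103 and passed in 10 of them, while its change stayed below 0 in all. With 1 array left out it passed in 2 of 10. The fits share arrays, so such counts are descriptions. Each member had 1 row, so the alternatives on row choice left its values unchanged and could alter little but the adjustment. CASP8 passed in 4 of 19, APAF1 in 1 of 20 and the other 5 members in 0 of 20 each, at adjusted p from 0.0507 for CASP9 upward.

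**Figure D4:**
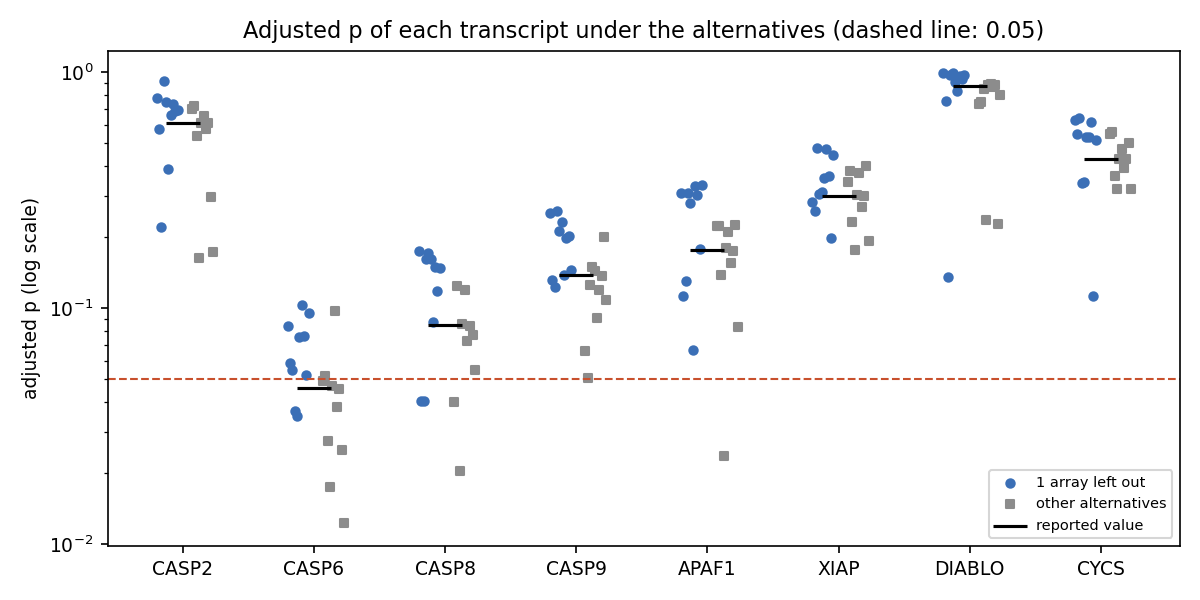
Adjusted p (log scale) of each of the 8 transcripts as reported (black line), with 1 array left out (blue circles, 10 fits) and under the other alternatives (grey squares), with 0.05 dashed. The CASP6 points straddle the line, from 0.0123 to 0.103, and those of CASP2, XIAP, DIABLO and CYCS all lie above it.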

How the data were processed

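Values in the deposited table are log2 expression, made by the authors with RMA (background subtraction, equalised array distributions, probe summaries) as the submitters' processing notes name it. The software, level of summarisation, filters and genome build were not stated in the labels used. The log2 scale was read from the values (1.07 to 14.37). Detection calls were not used, and the number of arrays limits the precision (median standard error of a log2 change 0.13).

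Symbols came from GEO's platform annotation: 14432 rows had 1 symbol, 2408 several and 5171 none. All 42 measured genes of the lists matched RefSeq by gene ID with the same symbol. Promoter windows came from RefSeq (GRCh38.p14), without the 50 bases after each start.

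Paraquat was compared with control on all 22011 rows, with no further scaling, by limma 3.58.1 in R 4.3.3 (lmFit and eBayes, group as the only term, two-sided, Benjamini-Hochberg over all rows, called at an adjusted p under 0.05). The script was tested on simulated data. Intervals use moderated standard errors; group errors are SDs. All members are named, with up to 4 passing genes per list by size of change, or up to 2 where none passed. Members and lists were chosen with earlier results of these data known. Alternatives were other scalings, a filter on dim rows, array weights, other moderation, other row choices, arrays left out, a block of consecutive title numbers and an adjusted p under 0.01.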

Additional observations from a re-analysis of the deposited data

Results flagged for a closer look

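In 50 groups of 5 arrays (25 named genes, both groups), 8 had an array whose gap to its nearest neighbour exceeded Dixon's critical value of 0.71 of the group's range, where chance flags about 1 group in 20; 7 of the 8 were control 11. Among the members these were CASP2 (8.92 in control 11, others 9.52 to 9.68), XIAP (8.62, others 7.52 to 7.82) and DIABLO (10.21, others 9.14 to 9.31). Among the surrounding genes, control 11 was low for PIDD1 (7.48) and PRKCD (6.68) and high for BIRC5 (10.13) and HTRA2 (9.19), and paraquat 8 was low for LMNB2 (8.66, others 8.82 to 8.87). The changes printed above for these surrounding genes include the flagged arrays.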

How the results depend on the processing

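The count of lowered members (1, CASP6) became 0 after quantile normalization (CASP6 adjusted p = 0.0517), with no moderation and at an adjusted p under 0.01, 2 with array weights (CASP6 and APAF1), and 0 to 1 with 1 array left out. The count of raised members (0) became 1, CASP8, when arrays were shifted to a common median and with array weights, and was 0 to 1 with 1 array left out; the cause was not tested. DIABLO was the only member whose change took the other sign, -0.01 without control 7, in a range of -0.01 to 0.26 with 1 array left out. The pathway counts stayed within 1.5 times, at 5 to 10 raised and 6 to 9 lowered. CASP8 had no value once rows with means up to 5.52 were left out, which removes it. Title numbers are not shared between the groups. As a check, consecutive numbers were treated as pairs: the deviations of paired arrays correlated across rows at 0.0912 to 0.461, and 6 of 10 arrays correlated best with their own pair, and 4 of 5 correlations exceeded 0.1. Because 1 did not and no label states a pairing, the pairs were not used for the reported values. That block left 1 lowered member (CASP6, adjusted p = 0.0123) and moved the rows called from 4397 to 5379.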

Other observations

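Rows assigned to several symbols stood for no gene above. One assigned to both CASP4, an inflammatory caspase gene, and CASP4LP, singled out after its values were seen, measured 5.37, 6.37, 5.19, 5.45 and 5.21 in controls 7, 11, 13, 17 and 19 and 7.35, 7.41, 7.30, 6.91 and 6.95 in paraquat 8, 12, 14, 18 and 20. It rose by 1.67 ± 0.22 (limma adjusted p = 0.000299), with no overlap between the groups. The row assigned to LMNB1 and PCIF1 fell (-1.35, adjusted p = 2.07e-05), as did that assigned to ENDOG and SPOUT1 (-0.65, adjusted p = 0.00381). The rows assigned to CASP1 with CARD17P and with CARD16 showed 0.11 and -0.11 (adjusted p = 0.469 and 0.884). That assigned to C6orf54 and LMNA showed 0.04 (limma adjusted p = 0.823), unlike the row of LMNA alone (0.95).

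Control 11 and paraquat 12 deviated from the median of the other arrays of their group in the same direction for 8 of 8 members, as was noticed after the values were seen. The deviations were 0.95 and 0.42 for CASP6, 0.98 and 0.24 for DIABLO, 0.93 and 0.19 for XIAP and -0.68 and -0.63 for CASP2. Over all rows the deviations of these arrays from their group means correlated at 0.461, the highest of the 5 pairs of consecutive numbers. The shared direction is therefore not read as a trait of the members. The share of all genes with the same direction was not counted, and no test was made of this pattern.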
